A study of Rattus norvegicus with 4 samples.

Results

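The solute carriers are the genes whose only listed symbol in the array's probe annotation begins with Slc or Slco followed by a number. They took up 114 of the 7688 spots of each array. These were 68 cDNA clones of 68 genes, 46 of them spotted at 2 places and 22 at 1. The arrays were 2-colour cDNA arrays, on which differently labelled RNA from 2 sources competes for one spotted clone, so that each spot gives a ratio and no level. On each of the 4 arrays the liver RNA of a single female Fischer rat dosed daily with ciprofibrate, at 50 mg per kg of body weight over 60 days, was set against 1 pool of liver RNA made from 5 control rats. Ciprofibrate is a lipid-lowering fibrate that activates the nuclear receptor PPARα. Neither the age of the rats nor the strain, sex or vehicle of the controls is given in the labels. The pool serves as a single control sample, so no spread between control animals enters any test, and the number of arrays limits the precision.

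Solute carriers are membrane proteins that move nutrients, ions, drugs and metabolites across the plasma membrane or the membranes of organelles, most of them by exchange or by coupling to an ion gradient. In liver, carriers of the sinusoidal membrane take up bile acids, sugars, amino acids and carnitine from the blood. Carriers of the mitochondrial inner membrane pass citrate, dicarboxylates, nucleotides and acylcarnitines between cytosol and matrix. PPARα binds DNA as a partner of the retinoid X receptor, classically at 2 copies of the half-site AGGTCA spaced by 1 base, and the carnitine carrier Slc22a5 and the lactate carrier Slc16a1 are known as genes that PPARα agonists can raise.

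The promoters of 5 carriers on which the results turn are shown to compare the letters ahead of genes with positive and with negative ratios. They were chosen after the ratios had been seen. Each holds the 250 bases before the RefSeq start in GRCr8, read 5′ to 3′ on the gene's strand, and capitals mark AGGTCA, the half-site of nuclear receptors, and GGGCGG, the core of the GC box bound by Sp1, on either strand. The first 3 belong to positive and the last 2 to negative calls.
Slc22a5: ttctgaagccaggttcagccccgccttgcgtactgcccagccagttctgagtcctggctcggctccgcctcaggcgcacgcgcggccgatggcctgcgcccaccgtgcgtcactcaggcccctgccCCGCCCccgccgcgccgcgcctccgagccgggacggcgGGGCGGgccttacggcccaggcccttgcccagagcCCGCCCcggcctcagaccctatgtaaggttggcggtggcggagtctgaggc
Slc16a1: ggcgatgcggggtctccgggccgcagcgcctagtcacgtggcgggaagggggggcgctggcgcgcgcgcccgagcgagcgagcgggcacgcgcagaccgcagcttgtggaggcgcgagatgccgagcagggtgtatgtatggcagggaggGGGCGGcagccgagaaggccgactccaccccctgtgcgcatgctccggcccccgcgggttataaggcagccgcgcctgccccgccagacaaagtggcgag
Slc17a1: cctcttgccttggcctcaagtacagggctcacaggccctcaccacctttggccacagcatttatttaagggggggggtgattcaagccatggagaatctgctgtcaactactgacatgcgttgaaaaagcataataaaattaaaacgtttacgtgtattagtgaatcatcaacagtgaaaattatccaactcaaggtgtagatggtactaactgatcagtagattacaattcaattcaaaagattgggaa
Slc25a10: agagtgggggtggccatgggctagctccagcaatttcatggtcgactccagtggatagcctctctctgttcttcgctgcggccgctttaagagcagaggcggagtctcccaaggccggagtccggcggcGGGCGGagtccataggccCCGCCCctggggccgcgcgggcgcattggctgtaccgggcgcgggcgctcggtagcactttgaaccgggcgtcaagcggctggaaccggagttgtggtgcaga
Slc34a3: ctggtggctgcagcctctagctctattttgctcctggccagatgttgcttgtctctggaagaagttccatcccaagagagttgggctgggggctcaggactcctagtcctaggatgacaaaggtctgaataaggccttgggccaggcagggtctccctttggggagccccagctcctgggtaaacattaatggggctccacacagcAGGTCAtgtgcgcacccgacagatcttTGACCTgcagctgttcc
The windows lay at chr10:38536073-38536322 on the minus strand for Slc22a5, chr2:194812410-194812659 on the plus strand for Slc16a1, chr17:41681175-41681424 on the minus strand for Slc17a1, chr10:106264146-106264395 on the plus strand for Slc25a10 and chr3:28447998-28448247 on the minus strand for Slc34a3. Of the 68 genes, 59 had a promoter in the table. AGGTCA occurred in 13 of the 59 (22%), against 14.1% of all 33469 promoters of this length. Among the called genes with a promoter it was found in 0 of 5 with positive and in 1 of 6 with negative ratios. That one was Slc34a3, with 2 copies, 1 on each strand, whose first bases lay at positions -44 and -17 relative to the start. The full repeat, with both half-sites on one strand and any base between them, was in 0 of the 59 members and in 17 of all promoters (0.0508%). GGGCGG was in 37 of the 59 (62.7%, against 30.5% of all promoters), among them 4 of the 5 with positive and 3 of the 6 with negative ratios. A match is only a match of letters in this window.

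Which channel stands over which is not stated in the deposited table. The labels name the treated liver as the first channel and the control liver as the second. Textbook targets of PPARα agonists, none of them a solute carrier, had 17 clones with ratios on every array, 13 with a positive and 4 with a negative mean. Of these, 6 were positive calls (35.3%) and 1, Acot2, a negative one (5.88%), beside 13.6% and 15% of all tested clones. The positive calls Crot, Ech1, Acsl1 and Acaa2 lay in the left blocks of the slide layout introduced below, where ratios were higher. Me1 and Eci1 lay in the right blocks. With the position surface that is introduced with the slide layout subtracted, 3 were positive calls and 1 negative, and the negative one was then Cpt1a (-0.35 ± 0.09, limma adjusted p = 0.0315) and not Acot2 (-0.17 ± 0.08, adjusted p = 0.131). Over all clones 2.85% were then positive and 11.3% negative calls. Within the panel, Acot2 and Cpt1a thus went against the sign read here. With the surface kept, Hsd17b4 and Angptl4 also had negative means (-0.36 and -0.09), though neither was a call. Outside it, the peroxisomal transporter Abcd3 was a negative call with the surface kept and with it subtracted (-0.53 and -0.43, limma adjusted p = 0.0142 and 0.0355). That panel was written with earlier results for several of its genes known, so its majority is only the basis for reading the sign. On that basis a positive log2 ratio is read as likely higher in the treated livers and a negative one as likely lower. All log2 ratios below are centred on the median of each array. Replicate numbers only name the arrays. Replicate 2 correlated least with the others over all spots (Pearson r from 0.462 to 0.529, against 0.669 to 0.759 among the other 3).

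Ratios on all 4 arrays were obtained for 54 of the 68 solute carriers, and these were tested. Of the 54, 7 passed the threshold with a positive mean and 6 with a negative one (limma, Benjamini-Hochberg adjusted p under 0.05 over all 4704 clones), and 41 did not pass. Those shares, 13% and 11.1%, are close to the background, since 13.6% of all tested clones were positive and 15% negative calls. The positive calls were Slc17a1, Slc22a5, Slc15a4, Slc1a1, Slc16a1, Slc25a36 and Slc7a1, and the negative calls Slc12a2, Slc17a5, Slc34a3, Slc1a2, Slc25a10 and Slc7a6. None of the 54 reached a 2-fold ratio (0 of 54). The median of the members' mean log2 ratios was -0.06, beside -0.01 over all tested clones, and 14 were above 0 and 16 below 0 on every array, where 27.2% and 25.6% of all clones were. For 28 of the 41 uncalled carriers the 95% interval of the mean lay within 0.5 of 0 on the log2 scale, so for these a larger mean ratio lies outside the interval. The 2 spots of a carrier differed less (median SD 0.09 over the 35 with both spots on every array) than the 4 arrays did (median SD 0.19 over all 54).

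**Figure D1:**
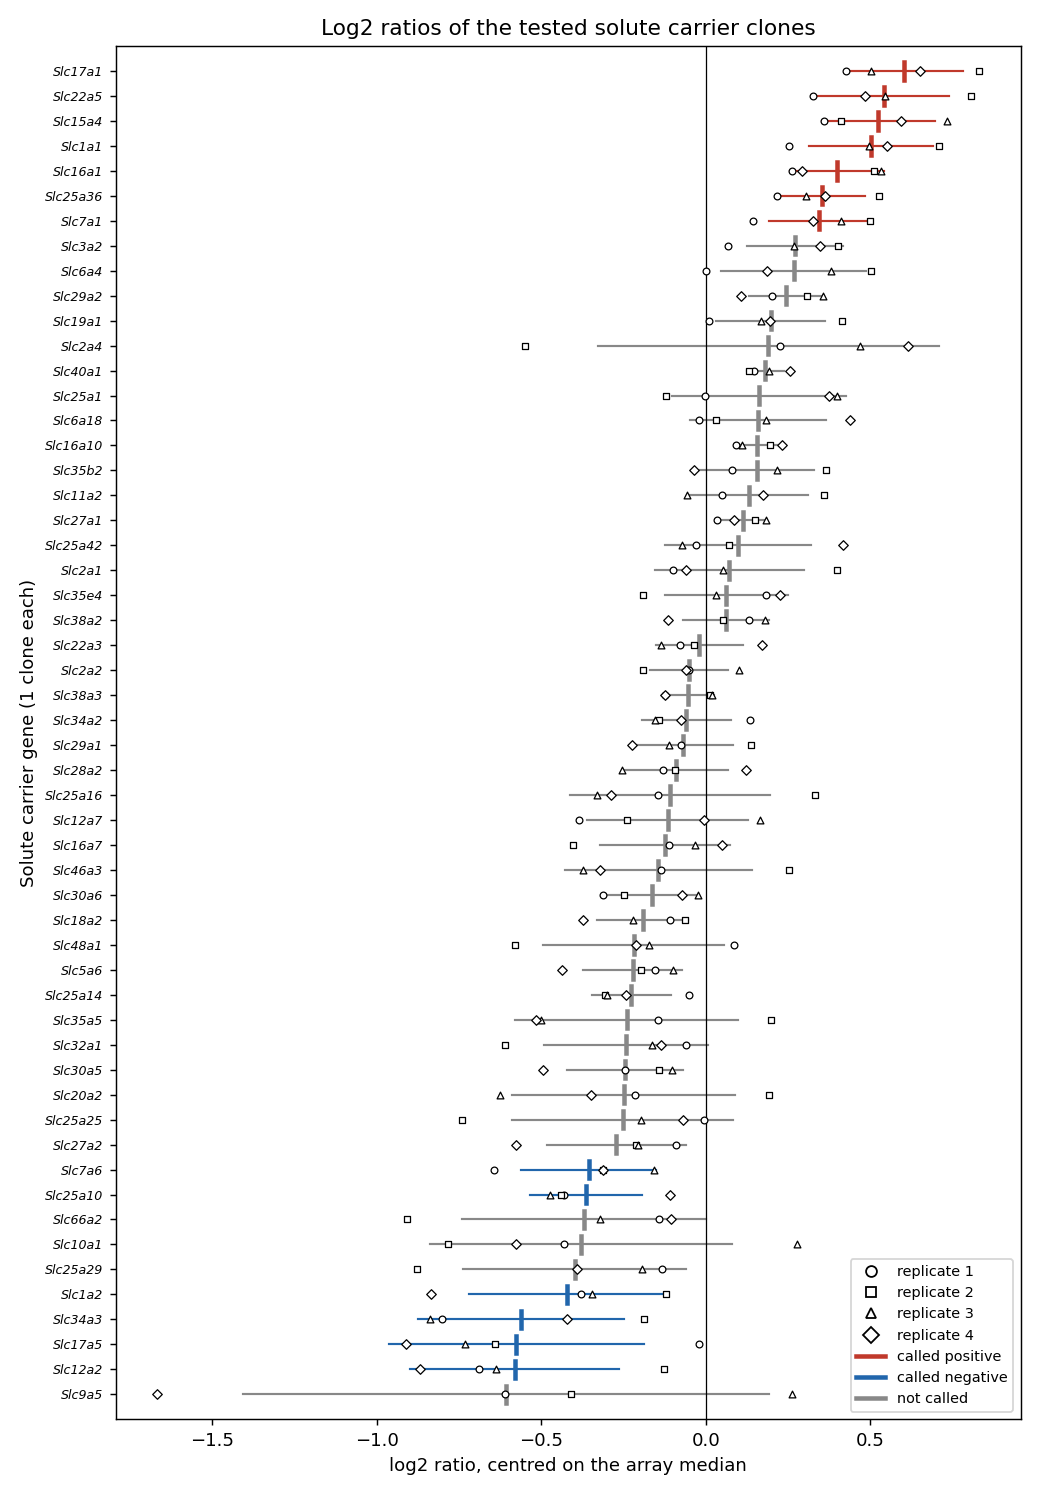
Log2 ratios of the 54 tested solute carriers, 1 gene per line, with a symbol for each of the 4 arrays, a vertical bar at the mean and a horizontal line of 1 SD to either side. The 7 positive calls (red) are above 0 on every array, the 6 negative calls (blue) are below 0 on every array, and the lowest mean, that of Slc9a5 at -0.61, is grey because its arrays range from -1.67 to 0.26.

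The place of a spot on the slide moved with these ratios. In the layout inferred from the values, 8 blocks of 31 by 31 spots in 2 columns, the left blocks had the higher median on every array (by 0.20, 0.12, 0.36 and 0.53 in log2 on replicates 1 to 4). Of the 7 positive calls 5 lay in the left blocks, and of the 6 negative calls 3, while 22 of the 54 tested carriers lay there. A smooth surface fitted over all spots stood at 0.03 to 0.29 at the spots of the 7 positive calls and at -0.14 to 0.23 at those of the 6 negative calls. With that surface subtracted from each array, limma called 0 of the 54 carriers positive, with the lowest adjusted p of a positive ratio at 0.0596, and 7 negative. At an unadjusted p under 0.05 they were 8 and 15, and the share over all clones at that threshold is not given. At an adjusted p under 0.05 the background fell too, to 2.85% of all clones positive and 11.3% negative. The median of the 7 positive calls went from 0.50 to 0.26, and all 7 stayed above 0. Of the 6 negative calls, Slc12a2, Slc34a3, Slc25a10 and Slc7a6 were called both ways, and Slc28a2, Slc22a3 and Slc30a6 were negative calls with the surface subtracted only. Slc34a3, Slc7a6 and Slc30a6 rest on 1 spot per array, as does the positive call Slc25a36. A simpler correction, the subtraction of the median of each block, gave another outcome, with 7 positive and 8 negative carriers. Over all 4704 clones it gave 380 positive and 624 negative calls, down from 638 and 706. It ended the positive calls of Slc1a1 (0.29, limma adjusted p = 0.079) and Slc25a36 (0.14, adjusted p = 0.284) and the negative call of Slc1a2 (-0.24, adjusted p = 0.128), and the other 5 positive and 5 negative calls held. Among the named carriers it added Slc29a2 as a positive call (0.28, adjusted p = 0.0414) and Slc12a7 (-0.33, adjusted p = 0.0459), Slc30a5 (-0.46, adjusted p = 0.0324) and Slc30a6 (-0.37, adjusted p = 0.024) as negative ones. How much of a positive ratio belongs to the place of its spots was not tested beyond these subtractions.

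**Figure D2:**
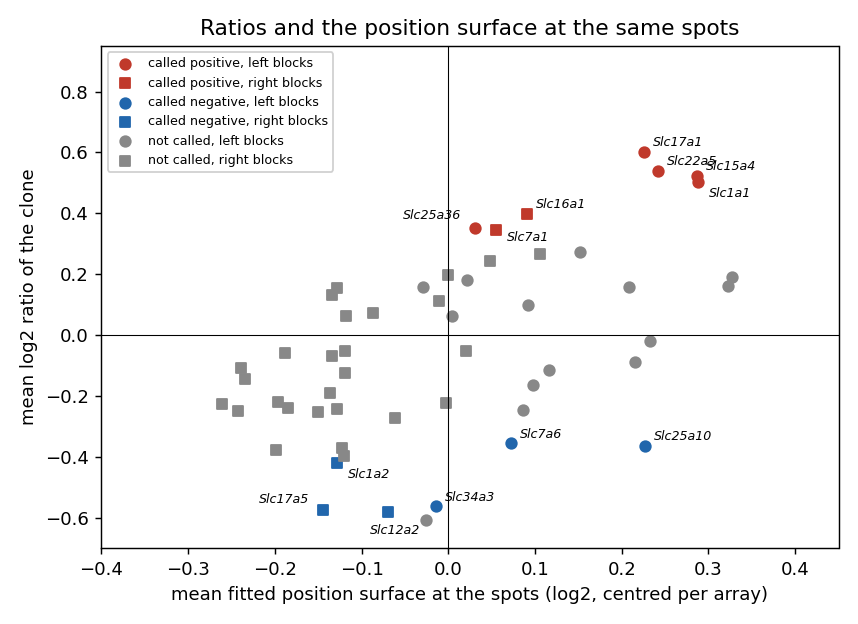
Mean log2 ratio of each tested solute carrier (vertical axis) against the mean of the fitted position surface at its own spots (horizontal axis, log2, centred per array), with circles for the left and squares for the right blocks. All 7 positive calls (red) sit where the surface is above 0, while the negative calls (blue) lie from -0.14 to 0.23 on that axis.

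**Figure D3:**
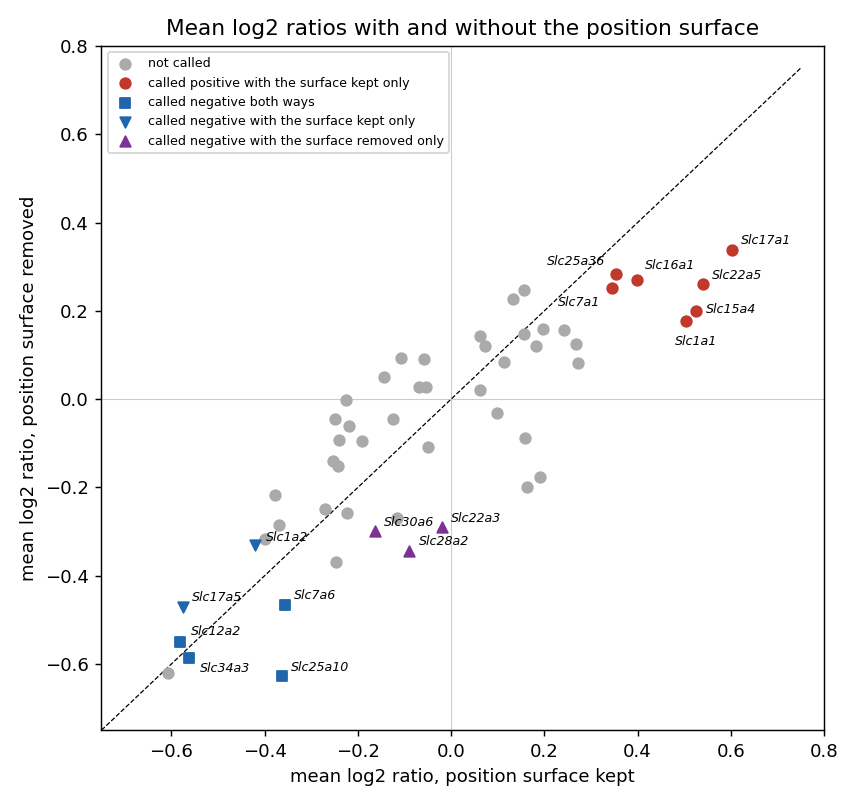
Mean log2 ratios of the 54 tested solute carriers with the position surface kept (horizontal) and subtracted (vertical), the dashed line marking equal values. The 7 positive calls (red) fall below the line and lose their call, whereas Slc25a10, at -0.36 and -0.63, moves further from 0.

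Organic ion and bile acid carriers of the plasma membrane gave 1 positive call among 3 tested clones. For this and each family below, the background is 13.6% positive and 15% negative calls over all clones. Slc22a5 is the sodium-dependent carnitine carrier, which supplies carnitine for the transport of long-chain fatty acids into mitochondria. Its log2 ratios were 0.33, 0.81, 0.54 and 0.49 on replicates 1 to 4. All 4 arrays were above 0, with replicate 2 the highest. The mean was 0.54 ± 0.20 (SD, n = 4), a 1.45-fold ratio (limma adjusted p = 0.0137). It was 0.26 ± 0.17 with the surface subtracted (adjusted p = 0.0872) and 0.54 without replicate 3 (adjusted p = 0.0635), and neither passed. Slc10a1, the sodium-dependent bile acid carrier of the hepatocyte, was at -0.43, -0.78, 0.28 and -0.58, a mean of -0.38 ± 0.46 that did not pass (95% interval -0.77 to 0.01, adjusted p = 0.125). Its 2 spots disagreed most among the carriers. On replicate 3 one stood at 0.86 and the other at -0.31, and without that array the mean of -0.60 was a negative call (adjusted p = 0.0426). Slc22a3, an organic cation carrier, lay at -0.02 ± 0.13 with the surface kept and at -0.29 ± 0.09 with it subtracted (adjusted p = 0.0491). Its spots lay where the surface stood at 0.23. Slco1a4, an organic anion carrier of the sinusoidal membrane, gave no ratio on any array.

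Carriers of monocarboxylates and peptides had 2 positive calls among 4 tested clones. Slc16a1 moves lactate, pyruvate and ketone bodies with a proton. It was at 0.26, 0.51, 0.53 and 0.29, above 0 on every array, with a mean of 0.40 ± 0.14 (SD, n = 4, limma adjusted p = 0.0257). This was the positive call with the lowest adjusted p once the surface was subtracted (0.27 ± 0.10, adjusted p = 0.0596), and its spots lay in the right blocks. With replicate 1, 3 or 4 left out the means of 0.44, 0.36 and 0.44 were no longer calls (adjusted p = 0.0585, 0.136 and 0.0703). Slc16a7, a close relative with a higher affinity for pyruvate, was at -0.12 ± 0.20 (95% interval -0.38 to 0.13, adjusted p = 0.42). Whether Slc16a1 and Slc16a7 differ was not tested. Slc15a4, a lysosomal carrier of histidine and small peptides, was at 0.36, 0.41, 0.73 and 0.59. Its mean of 0.52 ± 0.17 (adjusted p = 0.0134) fell to 0.20 ± 0.12 with the surface subtracted (adjusted p = 0.115), where the surface at its spots stood at 0.29. Leaving out replicate 3 or 4 also ended the call, at 0.45 and 0.50 (adjusted p = 0.0795 and 0.0558).

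Amino acid carriers went both ways, with 2 positive and 2 negative calls among 7 tested clones and a median of 0.06. The pair of sodium-coupled glutamate carriers had opposite signs. Slc1a1, the carrier of glutamate, aspartate and cysteine, was at 0.25, 0.71, 0.50 and 0.55, a mean of 0.50 ± 0.19 (SD, n = 4, limma adjusted p = 0.0163). Slc1a2, best known for glutamate uptake in astrocytes and also found in liver, was at -0.38, -0.12, -0.35 and -0.83, a mean of -0.42 ± 0.30 (adjusted p = 0.0462). Each kept its sign on every array, so the lack of overlap between their values adds nothing to the opposite calls. The difference between them was not tested, and with the surface subtracted they stood at 0.18 ± 0.22 and -0.33 ± 0.25, neither of them a call (adjusted p = 0.239 and 0.0825). Slc1a1 was no call with replicate 3 or 4 left out (0.50 and 0.49, adjusted p = 0.0714 and 0.0648). Slc1a2 was none with replicate 1, 3 or 4 left out (-0.43, -0.44 and -0.28, adjusted p = 0.118, 0.122 and 0.178).

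The carriers of cationic amino acids also had a call of each sign. Slc7a1, which takes up arginine and lysine on its own, was at 0.14, 0.50, 0.41 and 0.33, with a mean of 0.35 ± 0.15 (SD, n = 4, limma adjusted p = 0.0404). Slc7a6, which exchanges cationic for neutral amino acids, was at -0.64, -0.31, -0.16 and -0.31, with a mean of -0.36 ± 0.20 (adjusted p = 0.0471). It was one of the 4 negative calls that held with the surface subtracted (-0.47 ± 0.16, adjusted p = 0.0227), while Slc7a1 did not pass there (0.25 ± 0.15, adjusted p = 0.0825). Slc3a2, the heavy chain that Slc7a6 needs to reach the cell surface, had a mean of 0.27 ± 0.15 and did not pass (adjusted p = 0.0784). Neither was a call with replicate 1, 3 or 4 left out. Slc7a1 then stood at 0.41, 0.32 and 0.35 (adjusted p = 0.0628, 0.172 and 0.121) and Slc7a6 at -0.26, -0.42 and -0.37 (adjusted p = 0.163, 0.102 and 0.123). The system A and system N glutamine carriers Slc38a2 and Slc38a3 lay near 0, at 0.06 ± 0.13 (95% interval -0.17 to 0.29) and -0.05 ± 0.08 (-0.27 to 0.17).

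Mitochondrial carriers had 1 positive and 1 negative call among 8 tested clones, and a median of -0.17. Slc25a10 exchanges malate and succinate for phosphate across the inner membrane. It was at -0.43, -0.44, -0.47 and -0.11, close together on 3 arrays and nearer 0 on replicate 4. These are means of 2 spots that stood apart, at -0.26 and -0.60 on replicate 1 and at -0.22 and -0.72 on replicate 3. With every spot its own row Slc25a10 was not a call (limma adjusted p = 0.0549 for the weaker spot). Its mean of -0.36 ± 0.17 (SD, n = 4, limma adjusted p = 0.0377) became -0.63 ± 0.13 with the surface subtracted (adjusted p = 0.00817), the lowest mean among the carriers called there, since the surface at its spots stood at 0.23. With the surface kept and replicate 1, 3 or 4 left out, the means of -0.34, -0.33 and -0.45 did not pass (adjusted p = 0.12, 0.171 and 0.058). Slc25a36, a carrier of pyrimidine nucleotides, was at 0.22, 0.53, 0.31 and 0.36, a mean of 0.35 ± 0.13 (adjusted p = 0.035). It was at 0.28 ± 0.13 with the surface subtracted (adjusted p = 0.0604) and at 0.14 with block medians subtracted (adjusted p = 0.284), and passed in neither. Nor did it pass with the surface kept and replicate 1, 3 or 4 left out (0.40, 0.37 and 0.35, adjusted p = 0.0711, 0.131 and 0.117). Slc25a1, the citrate carrier that exports carbon for fatty acid synthesis, was at -0.0025, -0.12, 0.40 and 0.37, high on 2 arrays alone, and its mean of 0.16 ± 0.26 turned to -0.20 ± 0.09 with the surface subtracted; neither passed (adjusted p = 0.342 and 0.102). Slc25a29, a carrier of basic amino acids, had the lowest mean of the family, -0.40 ± 0.34, and did not pass (adjusted p = 0.0647).

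Of 2 tested cation-chloride cotransporters 1 was a negative call, as was 1 of 3 tested clones of the families grouped as phosphate carriers by number, which do not hold Slc17a1. Slc12a2, the sodium-potassium-chloride cotransporter that sets cell volume and chloride, was at -0.69, -0.13, -0.64 and -0.87. Replicate 2 was nearest 0, and the mean was -0.58 ± 0.32 (SD, n = 4, limma adjusted p = 0.0201), a 1.5-fold ratio, the largest among the negative calls. It was -0.55 ± 0.30 with the surface subtracted (adjusted p = 0.0366). Slc34a3, a sodium-phosphate cotransporter best known from the kidney tubule, was at -0.80, -0.19, -0.84 and -0.42, a mean of -0.56 ± 0.31 (adjusted p = 0.0216), and at -0.59 ± 0.32 with the surface subtracted (adjusted p = 0.0356). With replicate 1, 3 or 4 left out, Slc12a2 stood at -0.54, -0.56 and -0.48 (adjusted p = 0.0784, 0.0765 and 0.0804) and Slc34a3 at -0.48, -0.47 and -0.61 (adjusted p = 0.0859, 0.0995 and 0.0531), none of them a call. Slc12a7, a potassium-chloride cotransporter, was at -0.12 ± 0.24 (adjusted p = 0.488), at -0.27 ± 0.13 with the surface subtracted (adjusted p = 0.0668) and at -0.33 with block medians subtracted, where it was a negative call (adjusted p = 0.0459). Slc34a2, another phosphate cotransporter, was at -0.06 ± 0.13 (95% interval -0.29 to 0.17), and Slc20a2, a phosphate carrier outside the naming rule, at -0.25 ± 0.34 (adjusted p = 0.205). Without replicate 2 the mean of Slc20a2, -0.40, was a negative call (adjusted p = 0.0302). Slc9a5, a sodium-proton exchanger singled out after its values were seen, had the lowest mean of all carriers, -0.61 ± 0.80, and with arrays from -1.67 to 0.26 it did not pass (adjusted p = 0.117). Without replicate 3, its only positive array, the mean of -0.90 was a negative call (adjusted p = 0.0471). Leaving out the only array of opposite sign moves a mean away from 0 for any gene.

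The families of neurotransmitter, vesicular and organic anion carriers (numbers 6, 17, 18 and 32) held the carrier with the highest mean. Slc17a1, which moves phosphate and urate and is known from liver and kidney, was at 0.43, 0.83, 0.50 and 0.65. All 4 arrays were above 0, and the mean was 0.60 ± 0.18 (SD, n = 4), a 1.52-fold ratio (limma adjusted p = 0.00966). Among the 13 called carriers it alone stayed a call without each array in turn (0.53 to 0.66). With the surface subtracted it was 0.34 ± 0.21 and did not pass (adjusted p = 0.0633). Its relative Slc17a5, the lysosomal exporter of sialic acid, was at -0.02, -0.64, -0.73 and -0.91, near 0 on replicate 1 and low on the other 3. The mean of -0.58 ± 0.39 (adjusted p = 0.0283) was -0.47 ± 0.35 with the surface subtracted (adjusted p = 0.0649). With replicate 3 or 4 left out the means of -0.52 and -0.46 did not pass (adjusted p = 0.104 and 0.107), and on replicate 4 its 2 spots stood apart, at -1.35 and -0.48. The other 4 tested clones of these families did not pass.

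**Figure D4:**
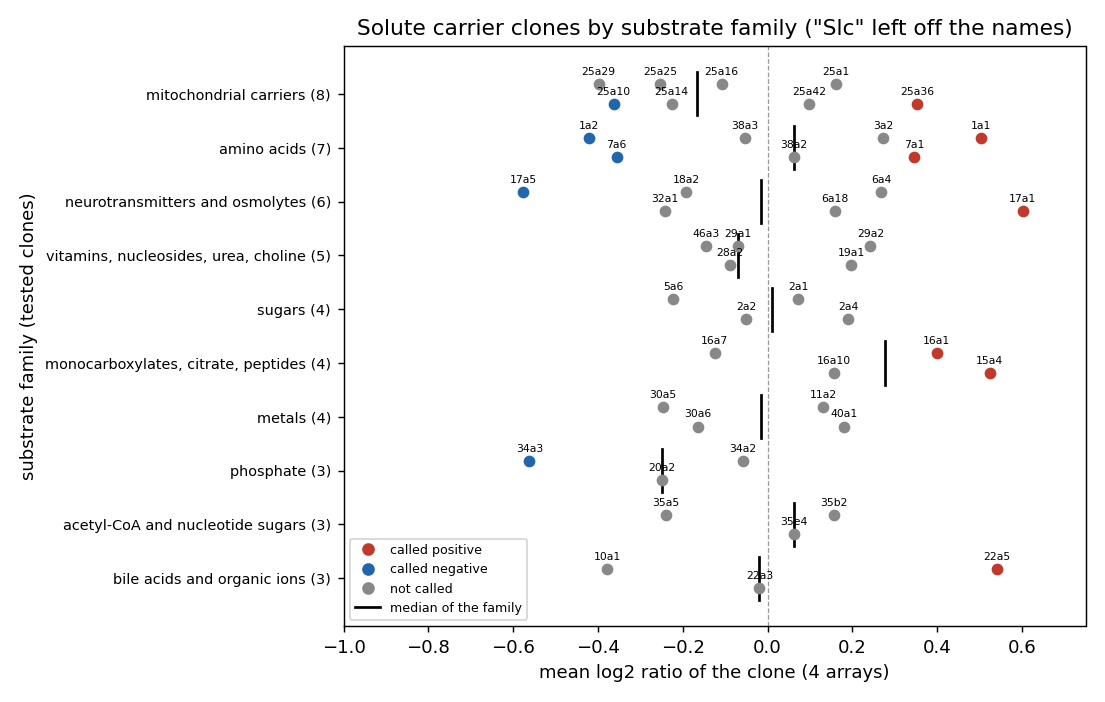
Mean log2 ratio of each tested carrier in the substrate families with at least 3 tested clones, with a vertical line at the median of each family and the number of clones in brackets. Amino acid and mitochondrial carriers hold calls in both directions, and sugar, metal, vitamin and nucleoside, and nucleotide sugar carriers hold none.

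Carriers of sugars, fatty acids, metals, vitamins and nucleosides gave no call with the surface kept. The glucose carriers Slc2a1, Slc2a2 and Slc2a4 were at 0.07 ± 0.23, -0.05 ± 0.12 and 0.19 ± 0.52 (SD, n = 4). Slc2a2, the main glucose carrier of the hepatocyte, had a 95% interval from -0.28 to 0.18. Slc2a4, the insulin-responsive carrier of muscle and fat, was at 0.23, -0.55, 0.47 and 0.62, with replicate 2 opposite to the other 3. Without that array its mean of 0.44 was a positive call (limma adjusted p = 0.0217), and with the surface subtracted from all 4 it was -0.18 ± 0.26 (adjusted p = 0.274). Slc5a6, counted with the sugar carriers by its number, carries biotin and pantothenate and was at -0.22 ± 0.15 (adjusted p = 0.134). The acyl-CoA synthetases of fatty acid uptake, Slc27a1 and Slc27a2, were at 0.11 ± 0.07 (95% interval -0.10 to 0.33) and -0.27 ± 0.21 (-0.53 to -0.01, adjusted p = 0.102).

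Among the metal carriers, Slc40a1, the iron exporter, was at 0.18 ± 0.06 (SD, n = 4), above 0 on every array but not a call (limma adjusted p = 0.171), and at -0.03 with block medians subtracted. The zinc carriers of the secretory pathway, Slc30a5 and Slc30a6, were at -0.25 ± 0.18 and -0.16 ± 0.14, and with the surface subtracted at -0.37 ± 0.24 and -0.30 ± 0.08, where Slc30a6 alone passed (adjusted p = 0.0631 and 0.0434). On replicate 1 the 2 spots of Slc30a5 had opposite signs, at -0.69 and 0.20, and on replicate 3 only 1 spot gave a ratio. Its negative call with block medians subtracted rests on the same spots. The nucleoside carriers gave means of -0.09 ± 0.16 for the concentrative Slc28a2, -0.07 ± 0.15 for Slc29a1 and 0.24 ± 0.11 for Slc29a2, the last 2 of which equilibrate nucleosides without an ion gradient. Slc28a2 became a negative call with the surface subtracted (-0.34 ± 0.09, adjusted p = 0.0317). Slc19a1, the reduced folate carrier, was at 0.20 ± 0.17 (adjusted p = 0.185), and Slc46a3, a lysosomal carrier, at -0.14 ± 0.28 (adjusted p = 0.418). Of the Golgi carriers, Slc35b2, which imports the sulfate donor PAPS, was at 0.16 ± 0.17 (adjusted p = 0.288) and Slc35a5 at -0.24 ± 0.34 (adjusted p = 0.22). Slc35a5 was at -0.14, 0.20, -0.50 and -0.51, with replicate 2 opposite to the others, and without that array its mean of -0.39 was a negative call (adjusted p = 0.0323). The 15 tested carriers outside the naming rule lay between -0.61 and 0.27, with a lowest adjusted p of 0.0929.

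Carriers known for liver did not stand apart by count. Of 20 tested clones on a list of liver carriers, 3 were positive (Slc22a5, Slc16a1 and Slc1a1) and 3 negative (Slc12a2, Slc1a2 and Slc25a10), with a median of 0.01. These are 15% and 15%, beside 13.6% and 15% of all clones. With the surface subtracted 0 were positive and 2 negative, beside 2.85% and 11.3% of all clones. The lists of carriers best known from brain and from kidney or gut had 3 tested clones each and 0 calls each with the surface kept. With it subtracted, Slc28a2 of the kidney and gut list was a negative call. Slc34a3, described above as best known from the kidney tubule, was on none of the 3 lists. Slc1a2, best known from astrocytes, was counted with the liver carriers alone. Both were negative calls with the surface kept, so the 0 calls depend on how the lists were drawn.

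The 14 carriers left untested lacked a ratio on at least 1 array. No array gave one for Slc15a2, Slc1a3, Slc6a8, Slc4a4, Slc7a8, Slc7a9, Slco1a4, Slc12a1 or Slc25a3 (9 genes), among them Slc25a3, the phosphate carrier of mitochondria, and Slc4a4, a sodium-bicarbonate cotransporter. A missing ratio cannot be read as a low level, since the table holds no intensities. Slc35a1, which carries the sialic acid donor CMP-sialic acid into the Golgi, was at -1.15, -1.02 and -1.20 on replicates 1 to 3 and missing on replicate 4. When clones with at least 3 arrays were admitted its mean of -1.12 ± 0.09 (SD, n = 3) was a negative call (limma adjusted p = 0.00383), from a single spot per array. The others had 1 spot on 1 or 2 arrays. Slc12a3, a sodium-chloride cotransporter of the kidney, was at -1.53 and -1.14 on replicates 3 and 4, and Slc37a4, the glucose 6-phosphate carrier of the endoplasmic reticulum, at 0.86 on replicate 3. Slc17a7, a vesicular glutamate carrier of neurons, was at -4.63 on replicate 2, and Slc4a1, the anion exchanger of the red cell membrane, at -2.51 on replicate 4. Of the 3 tested clones of other red cell genes 2 were negative calls, Hbb (-0.88 ± 0.24) and Epb42 (-0.73 ± 0.30), while Alas2 stood at 0.11 ± 0.22. Their part in the ratio of Slc4a1 was not tested.

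Other transport proteins, from a list of ATP-driven pumps, ABC transporters, aquaporins and mitochondrial import and pore proteins, gave 3 positive and 4 negative calls among 26 tested clones (median 0.03). The positive ones were the sodium pump subunit Atp1b1 (0.57 ± 0.11, SD, n = 4), the calcium pump Atp2b1 (0.55 ± 0.21) and Timm44 of the mitochondrial import motor (0.46 ± 0.16), and 0 of the 3 held with the surface subtracted (limma adjusted p = 0.181, 0.12 and 0.203). The negative ones were the peroxisomal transporter Abcd3 (-0.53 ± 0.20), the mitochondrial import protein Timm29 (-0.52 ± 0.09), the aquaporin Aqp5 (-0.44 ± 0.14) and the sodium pump subunit Atp1b3 (-0.39 ± 0.05), and all 4 held. The 3 positive calls lay in the left blocks and the 4 negative calls in the right blocks. Over all clones, 58 of 638 positive and 398 of 706 negative calls held with the surface subtracted.

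Markers of cell types had calls in both directions, where 13.6% of all clones were positive and 15% negative calls. Of 9 tested clones of hepatocyte genes 2 were negative calls and the other 7 also had negative means, with a median of -0.49. Replicate 2 stood lowest, with medians of -0.11, -0.94, -0.23 and -0.30 on replicates 1 to 4, and Serpina1 went from 0.12 on replicate 1 to -1.53 on replicate 2. Macrophage clones gave 1 positive and 1 negative call of 3, stellate cell and fibroblast clones 3 and 2 of 7, endothelial clones 1 and 0 of 2, red cell clones 0 and 2 of 3, and the 1 leukocyte clone was negative. With the surface subtracted no positive marker ratio passed (lowest limma adjusted p = 0.0603, for 1 of 2 clones of Col1a2), and 1 hepatocyte, 1 macrophage, 1 stellate cell and fibroblast, 0 endothelial, 2 red cell and 1 leukocyte clone were negative calls. No cholangiocyte marker of the list was on the array under 1 symbol. In bulk liver, fewer cells of a type and less RNA per cell cannot be told apart, and with ratios alone the labelled tissue could not be checked against levels. Their part in the ratios of the solute carriers was not tested.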

How the data were processed

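Per the labels, liver total RNA of 4 treated rats was hybridised against a control pool, and the authors deposited 1 log10 ratio per spot and array. The unit is not named in the table and was read from the values, since their antilogs, in thousandths, were whole within 0.02 for 100.0% of spots. The sources used here name no scanner, background correction or normalization. The most repeated value of each array (on 1171 to 1189 spots) was read as a missing ratio. Values were converted to log2, spots of one accession averaged, and arrays centred on their medians (shifts from -0.03 to 0.08). Symbols are those of an old annotation of the platform (5169 probes with 1 symbol, 83 with several, 2436 not listed), updated through GRCr8. The symbols of all 68 members were already current. Clone sequences, and so cross-hybridisation between related carriers, were not checked. Neither the scaling of the deposited ratios nor their direction is stated.

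Rats are not numbered in the labels. Arrays were treated as separate animals, and p-values measure only the spread between these arrays, which may be technical. Clones measured on 4 of 4 arrays were tested with limma 3.58.1 (lmFit, eBayes) in R 4.3.3 as the mean log2 ratio against 0, two-sided, adjusted by Benjamini-Hochberg over all clones at 0.05. The smallest p of an exact sign-flip test over 4 arrays is 0.125. Intervals are 95% intervals of that fit. The position surface is a robust loess (span 0.05, degree 1, 4 iterations) over the inferred layout. The fit was tested on simulated data. Promoters are RefSeq sequences of GRCr8.

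Named genes were the members called with or without the surface, measured members of the liver list, and the highest and lowest of each family of at least 3 tested clones. Substrate families follow the family number. The members, lists, panel, surface and tests were chosen with earlier results of these data known. Alternatives covered position, scaling, missing values, the row unit, the test and each array left out. Subtracting the surface together with leaving out replicate 2 was chosen after seeing the data.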

Additional observations from a re-analysis of the deposited data

Results flagged for a closer look

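The ratio of Slc25a10 on replicate 4, -0.11, lay far from its other 3 arrays, which were between -0.47 and -0.43. The gap took up 0.883 of the whole range, above the 95% limit of Dixon's test for 4 values. Chance alone passes that limit in about 1 of 20 groups, and 39 carriers were examined. The values of Slc25a10 are means of 2 spots that stood apart. On replicates 1 to 4 one spot was at -0.26, -0.39, -0.22 and -0.18. The other was at -0.60, -0.49, -0.72 and -0.04. With the surface subtracted the 4 arrays were at -0.59, -0.72, -0.74 and -0.46.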

How the results depend on the processing

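The solute carriers had 7 positive and 6 negative calls, beside 638 and 706 among all 4704 clones. Array weights gave 12 and 15 carriers, beside 1148 and 1211 of all clones. A statistic without moderation gave 0 and 0, beside 6 and 4 of all clones. At an unadjusted p under 0.05 it gave 12 and 5 carriers, with no share over all clones given. Subtracting the position surface gave 0 positive carriers, beside 134 of all clones, and 4, beside 432, when replicate 2 was also left out. Those 4 were Slc17a1, Slc16a1, Slc25a36 and Slc35b2 (limma adjusted p = 0.0388, 0.0392, 0.0373 and 0.0484), in a setting chosen after seeing the data. Counting the repeated value as measured gave 3 negative carriers, beside 462 of 5674 clones. Leaving out 1 array gave 1 to 8 positive and 1 to 8 negative carriers, beside 99 to 872 and 323 to 895 of all clones. The fewer arrays also lower the power. Without replicate 2, however, calls rose to 872 and 895 of 4718 clones. The calls that Slc10a1, Slc9a5, Slc2a4, Slc35a5 and Slc20a2 gained each came from leaving out their only array of opposite sign. That choice by itself moves the mean away from 0. The other alternatives kept both counts within 1.5 times. The median ratio of -0.06 was -0.0212 with block medians subtracted, -0.0448 with the surface subtracted, -0.0152 with replicate 2 also left out, -0.0866 with every spot its own row, -0.0883 without centring, -0.0849 after quantile normalization and -0.059 to -0.0447 with 1 array left out. Of the 39 named carriers 0 had a call that changed sign under any of these. Block medians ended 3 calls and added 4. The surface ended 9 and added 3. With every spot its own row, a carrier was called when all its tested spots were. No paired analysis was possible because each array already compares a treated liver with the one pool. The table holds no intensities, so dim spots cannot be set apart.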

Other observations

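Among the 7 positive calls, replicate 1 was the lowest array in 7 and replicate 2 the highest in 5. With the position surface subtracted, replicate 2 was the highest in all 7, and replicate 1 was the lowest in 3. Among the 6 negative calls, replicate 4 was the lowest array in 3 either way. These arrays were looked at because their carriers had been called.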
